A study of Homo sapiens with 4 samples.

Results

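The HNRNP and SR splicing regulators are the genes of 2 large families of RNA-binding proteins that decide which exons enter an mRNA, with a few close partners. The members were all protein-coding genes whose symbol starts with HNRNP or with SRSF and a number, together with TRA2A, TRA2B, SYNCRIP, PTBP1, PTBP2, PTBP3, RBM39, SON and CLK1 to CLK4. This gave 51 members among the 60671 genes listed, of which 27 have an HNRNP symbol and 12 an SRSF symbol. The rule uses symbols only and no measured value, but it was set with earlier results of these data known.

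RNA was sequenced from the established human prostate carcinoma lines 22RV1 and PC3, carrying a lentiviral short hairpin RNA against the RNA helicase DDX52 (shDDX52) or a control hairpin (shCON). All 4 cell populations were stable transductants selected with puromycin, and a single hairpin sequence was used against DDX52. Each condition had 1 library, so the differences given here have no replicate check and no test was made. DDX52 itself was 4.88 TPM with shCON against 1.2 TPM with shDDX52 in 22RV1, and 9.20 TPM against 2.07 TPM in PC3. The prostate genes KLK2 and KLK3 were 32.6 and 6.84 TPM in 22RV1 with shCON and were listed at 0 in PC3. CD44, a marker of PC3 cells, was 17.1 and 7.01 TPM in 22RV1 and 571 and 664 TPM in PC3. VIM, also planned as a marker of PC3, was 8.08 TPM in 22RV1 and 12.6 TPM in PC3 with shCON. With shDDX52, VIM was 5.57 and 66.7 TPM. TMPRSS2, planned as a marker of 22RV1, was 4.82 TPM in 22RV1 and 2.94 TPM in PC3 with shCON. VIM and TMPRSS2 thus separated the control libraries less clearly than KLK2, KLK3 and CD44.

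As background, heterogeneous nuclear ribonucleoproteins (hnRNPs) coat nascent transcripts, and many of them repress the use of nearby exons. SR proteins carry a domain rich in arginine and serine and mostly promote the use of exons to which they bind. CDC2-like kinases (CLK1 to CLK4) phosphorylate that domain in the nucleus. Many genes of these families limit their own output by including a poison exon, which sends the transcript to nonsense-mediated decay. Several members also belong to the widely used MYC target gene sets, and the study compared its libraries by such sets.

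The values are in TPM, a share of all transcripts that is corrected for length, so levels of different genes can be compared. Where a pair of values follows a cell line, the first is shCON and the other shDDX52. A change is given as a log2 ratio, which is the log2 of TPM + 1 with shDDX52 over TPM + 1 with shCON, for genes that reached 1 TPM in at least 1 of the compared libraries. The added 1 TPM makes the change of low genes look smaller than it was. A gene was counted as lower or higher past a fixed size when this ratio reached 1.5-fold. TPM was given per gene, so a transcript with a poison exon was not told apart from a productive transcript. In bulk RNA, fewer cells of a kind and less RNA per cell cannot be told apart. Depth is not kept in TPM, and how many reads lie behind a value is unknown.

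Of the 51 members, 45 reached 1 TPM in each cell line. HNRNPCL1, HNRNPCL2, HNRNPCL3 and HNRNPCL4, which are copies of HNRNPC, were listed at 0 in all 4 libraries. SRSF12 was 0.80 and 0.94 TPM in 22RV1 and was listed at 0 in PC3. HNRNPUL2 was 0.30 TPM in 22RV1 shCON and was listed at 0 in the other 3 libraries, while HNRNPUL2-BSCL2, a readthrough gene over the same locus, was between 71.8 and 90.01 TPM. Of the 50-base words of the HNRNPUL2 transcript, 45.2% also occur in HNRNPUL2-BSCL2, so the values of this locus may not be split correctly between both identifiers.

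Some members have near copies elsewhere in the genome, which matters for how reads were assigned. HNRNPA1L2 and HNRNPA1L3 are copies of HNRNPA1 that lack introns in their coding part, and the coding sequence of HNRNPA1L2 matched HNRNPA1 at 98.4% of 960 aligned positions. For HNRNPA1L3 the match was 99.3% of 825 positions.

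Among the 50-base words of the transcripts, 58.5% of HNRNPA1L2 and 28.8% of HNRNPA1 recur in transcripts of other genes, and the values of these genes are therefore uncertain where reads could be assigned to either. The share was 17.5% for HNRNPA3, 10.9% for HNRNPC, 13.3% for HNRNPK, 15.04% for HNRNPH2 and 32.3% for HNRNPL. SRSF1 shared 58.5% of its words with an overlapping gene without a symbol. For SRSF2, SRSF4, SRSF7, SRSF9, TRA2A, TRA2B, HNRNPA2B1, HNRNPF, HNRNPM and PTBP1 the share was 0.

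SRSF3 has a processed pseudogene, SRSF3P4, on chromosome 2 from 106253231 to 106253717 (minus strand). It was 61.95 and 42.85 TPM in 22RV1, and it was listed at 0 in PC3. The coding sequence of SRSF3 and the pseudogene matched at 93.5% of 492 aligned positions, and 5.94% of the 438 words of 50 bases in SRSF3P4 occur in SRSF3. The 90 coding bases with most differences (positions 134 to 223 of SRSF3) are given because they show that the copies differ at 8 positions, in capitals, in this stretch.
SRSF3: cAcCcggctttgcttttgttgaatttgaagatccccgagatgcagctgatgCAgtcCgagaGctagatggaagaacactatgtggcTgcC
SRSF3P4: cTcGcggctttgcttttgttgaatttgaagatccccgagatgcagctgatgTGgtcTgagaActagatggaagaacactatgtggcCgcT

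The sum of SRSF3 and its pseudogenes was 230 and 172 TPM in 22RV1, a change of −25.2%. In PC3 it was 202 and 138 TPM, a change of −31.7%. SRSF3 and SRSF3P4 were each lower with shDDX52 in 22RV1, so their sum had to be lower and is no check on split reads. TPM is also scaled by length, so adding the values does not restore reads assigned to the wrong copy. In PC3 the pseudogenes of SRSF3 were listed at 0, so the PC3 sum is SRSF3 alone and adds nothing on this point. Of 136 listed pseudogenes of members, 86 were at 0 in all 4 libraries and 6 reached 1 TPM in a library. Apart from SRSF3P4, none of these exceeded 4.37 TPM.

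The sequence CACGTG is the E-box to which MYC and MAX bind, and it reads the same on both strands. It was searched in the RefSeq promoter windows on GRCh38.p14, from 250 bases before to 50 after each RefSeq start. Such an entry existed for 45 of the 51 members. HNRNPA1, HNRNPA1L3, HNRNPCL3, RBM39, SRSF2 and TRA2A had no entry. CACGTG occurred in 10 of 45 members (22.2%), in 7 of 24 HNRNP genes (29.2%) and in 0 of 11 SRSF genes. It occurred in 7.26% of 35116 promoter windows in all and in 10.2% of 10479 windows of protein-coding genes with at least 1 TPM. The members with a match were HNRNPA3, HNRNPD, HNRNPDL, HNRNPH2, HNRNPH3, HNRNPM, HNRNPUL1, SYNCRIP, CLK2 and CLK4. Windows around the match, with CACGTG in capitals and read along the strand of the gene, are shown for 5 of them, chosen because their transcripts differed in direction with shDDX52.
HNRNPA3, chr2:177212701-177212750, plus strand: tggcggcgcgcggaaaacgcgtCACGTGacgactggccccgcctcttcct
HNRNPDL, chr4:82430354-82430403, minus strand: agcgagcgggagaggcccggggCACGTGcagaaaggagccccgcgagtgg
HNRNPD, chr4:82373992-82374040, minus strand: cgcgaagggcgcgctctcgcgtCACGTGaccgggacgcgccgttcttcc
HNRNPH3, chr10:68331621-68331670, plus strand: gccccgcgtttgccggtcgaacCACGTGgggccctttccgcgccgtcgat
CLK2, chr1:155273549-155273598, minus strand: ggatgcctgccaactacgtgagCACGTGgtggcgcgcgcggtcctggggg

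The match begins at base −71 from the start of HNRNPA3, −156 of HNRNPDL, −27 of HNRNPD, −50 of HNRNPH3 and −72 of CLK2. HNRNPA3 and HNRNPDL were lower with shDDX52 in both lines, CLK2 was higher in both, and HNRNPD and HNRNPH3 were higher in 22RV1 and lower in PC3, with the values given further on. A match is a description of the letters in the window and was not tested for binding.

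In 22RV1, 34 of the 45 members were lower with shDDX52 and 11 were higher, beside 58.8% of all 14438 genes that were lower and 40.9% that were higher. Their median log2 ratio was −0.20, while that of all genes was −0.08. Relative to genes of like transcript length and GC content, 24 of 45 members were lower in 22RV1 and the median was −0.03. Among members of at least 10 TPM, 29 of 38 were lower and the median was −0.18, beside a median of −0.06 and 58.2% lower for all genes of that level. In PC3, 33 of the 45 members were lower and 12 higher, beside 53.5% of 14262 genes lower and 46.3% higher, and the median was −0.15 beside −0.04 for all genes. Among members of at least 10 TPM, 30 of 40 were lower in PC3 with a median of −0.16, beside −0.07 and 58.2% for all such genes. When TPM was rescaled to nuclear protein-coding genes, the median of the 11945 such genes used in PC3 was 0.08, and 40.5% of them were lower. On that scale 27 of 45 members were lower with a median of −0.02.

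Few members changed by a large factor. No member in 22RV1 was at least 1.5-fold lower, beside 8.47% of all genes, and PTBP2 was the 1 member at least 1.5-fold higher, beside 5.61% of all genes. In PC3 SRSF8, SRSF6, SRSF5 and TRA2A were at least 1.5-fold lower, which is 4 of 45 members or 8.89% beside 9.84% of all genes. No member was 1.5-fold higher in PC3, beside 8.95% of all genes. In each line and direction, the share of members past 1.5-fold was under that of all genes. Among members of at least 10 TPM, 0 of 38 were 1.5-fold lower (5.32% of such genes) and 0 higher (2.69%) in 22RV1, while 4 of 40, or 10%, were lower (7.49%) and 0 higher (6.21%) in PC3. With 1 TPM added, no member changed 2-fold, beside 2.86% of all genes lower and 2.24% higher by that factor in 22RV1, and 3.44% lower and 2.86% higher in PC3. This rests on the added TPM for both low members concerned: without it, PTBP2 with shDDX52 was at 255% of its control in 22RV1 and CLK4 at 49.3%. The members just short of the 1.5-fold size in PC3 were CLK1 and SRSF3, both at −0.55, and those nearest to it in 22RV1 were CLK4 and SRSF8, both at −0.52.

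Together, the members made up 0.846% of the listed TPM of 22RV1 with shCON and 0.765% with shDDX52. Their summed TPM was 8361 and 7582, a change of −9.31%. In PC3 the share was 0.662% with shCON and 0.591% with shDDX52, and the sum of 6560 and 5815 TPM gave a change of −11.4%. In 22RV1 HNRNP genes held most of this difference, at 6443 and 5775 TPM, while SR proteins were at 1216 and 1130 TPM, a change of −7.13%. In PC3 HNRNP genes went from 4539 to 4094 TPM and SR proteins from 1470 to 1176 TPM, a change of −20.0%.

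**Figure D1:**
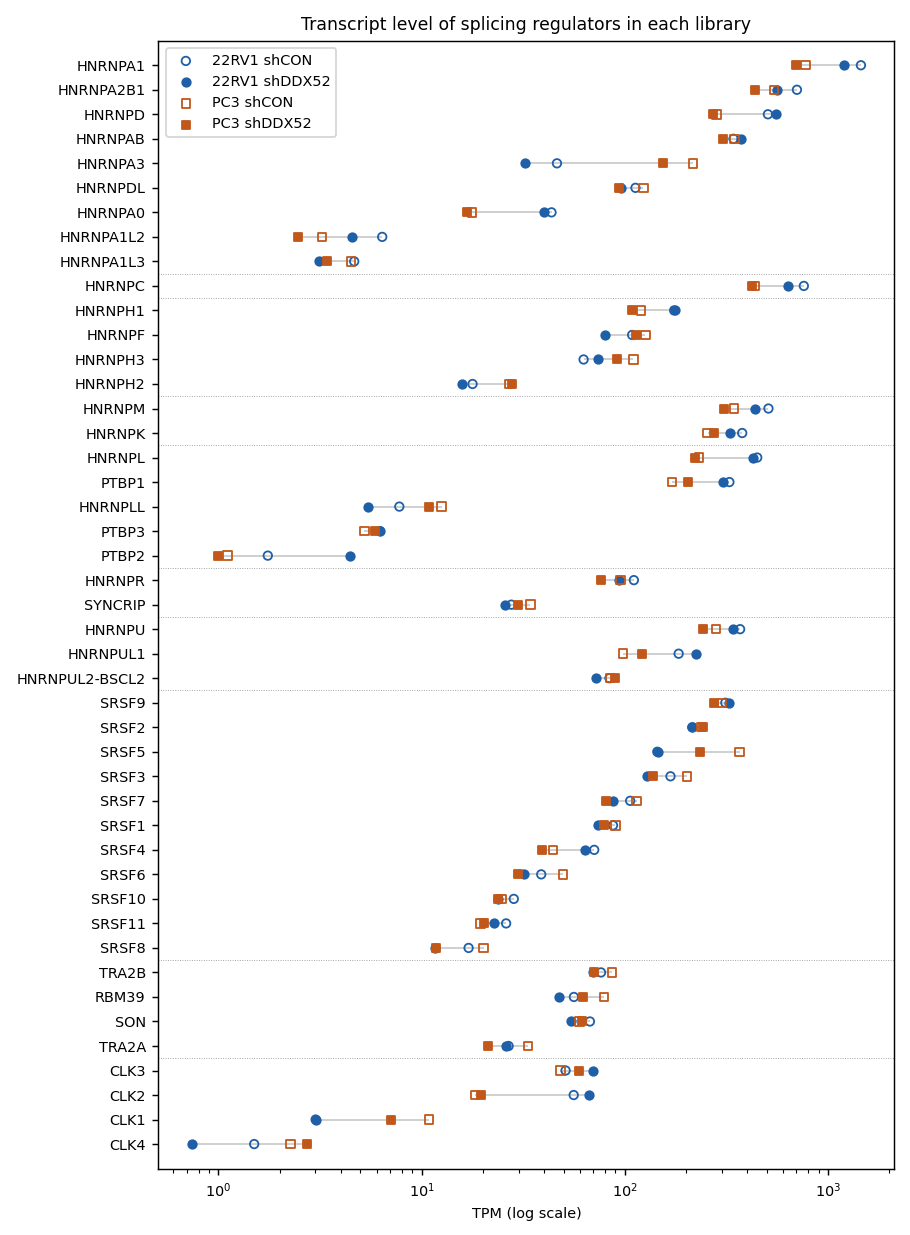
TPM of the 45 members used, on a log axis, in the 4 libraries; circles are 22RV1 and squares PC3, open symbols are shCON and filled symbols shDDX52, and dotted lines separate the classes. HNRNPA1 lies at the top of the scale, from 698 to 1455 TPM, and HNRNPA3 shows the widest gap between the cell lines.

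The A/B and D class holds the core hnRNPs that package nascent RNA. In it, 7 of 9 members were lower in 22RV1 and 9 of 9 in PC3, with medians of −0.28 and −0.29. Of all genes, 58.8% and 53.5% were lower. Centred on transcript length and GC content, HNRNPA0, HNRNPAB and HNRNPD were above 0 in 22RV1, HNRNPDL was at 0 and the rest below. On the scale of nuclear protein-coding genes, HNRNPA0 (0.04) and HNRNPD (0.08) were above 0 in PC3 and the rest below. HNRNPA1 (chromosome 12 from 54280193 to 54287088, plus strand, GENCODE 29 on GRCh38), a repressor of exon use, was the highest member at 1455 and 1197 TPM in 22RV1. The PC3 values were 776 and 698 TPM, giving log2 ratios of −0.28 and −0.15. Both shDDX52 libraries thus lay under their own control, and both PC3 libraries lay under both 22RV1 libraries.

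HNRNPA2B1 (chromosome 7 from 26173057 to 26201529, minus strand), which binds RNA and also sorts small RNAs, was 704 and 564 TPM in 22RV1 shCON and shDDX52. It was 542 and 439 TPM in the same order in PC3. The change was of like size in both lines, at −0.32 and −0.30.

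HNRNPA3 (chromosome 2 from 177212563 to 177223958, plus strand), a relative of HNRNPA1 linked to mRNA transport, was 46.4 and 32.3 TPM in 22RV1. It reached 217 and 154 TPM in PC3. The shDDX52 level was 69.7% of the control in 22RV1 and 70.7% in PC3, with log2 ratios of −0.51 and −0.50, although the level differed 4.68-fold between the control libraries. With its pseudogenes added, the changes were −29.6% and −29.5%. HNRNPA3 was the member of its class with the lowest log2 ratio in each line.

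The other members of the class ranged from −0.45 to 0.12 in 22RV1 and between −0.39 and −0.05 in PC3. HNRNPDL, a relative of HNRNPD, was 113 and 95.7 TPM in 22RV1 and 124 and 94.2 TPM in PC3, with log2 ratios of −0.24 and −0.39. HNRNPD, also known as AUF1 and a factor in mRNA decay, was 507 and 552 TPM in 22RV1 and 283 and 272 TPM in PC3, with log2 ratios of 0.12 and −0.05. HNRNPAB was 343 and 374 TPM in 22RV1 and 346 and 304 TPM in PC3, so HNRNPD and HNRNPAB were the 2 members of the class above their control in 22RV1. HNRNPA0, whose gene has no introns in its coding part, was 43.6 and 40.2 TPM in 22RV1 and 17.7 and 16.7 TPM in PC3.

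The copies of HNRNPA1 stayed low. HNRNPA1L2 was 6.40 and 4.54 TPM in 22RV1 and 3.24 and 2.47 TPM in PC3. HNRNPA1L3 was 4.66 and 3.14 TPM in 22RV1 and 4.50 and 3.44 TPM in PC3, and its log2 ratio of −0.45 placed it among the 5 members furthest down in 22RV1.

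HNRNPC (chromosome 14 from 21209136 to 21269494, minus strand), which binds uridine tracts and blocks the use of cryptic exons, was 761 and 640 TPM in 22RV1, a log2 ratio of −0.25. In PC3 it was 438 and 421 TPM, a log2 ratio of −0.05. It was the member with the second highest mean level.

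The F/H class binds runs of guanines, and 2 of 4 members were lower in 22RV1 and 3 of 4 in PC3. HNRNPF was 109 and 80.3 TPM in 22RV1 and 126 and 114 TPM in PC3, with log2 ratios of −0.43 and −0.15. HNRNPH3 went in opposite directions, at 62.7 and 73.8 TPM in 22RV1 (0.23) and 110 and 91.2 TPM in PC3 (−0.27). HNRNPH1 was 175 and 176 TPM in 22RV1 and 120 and 109 TPM in PC3, and HNRNPH2 was 17.8 and 15.8 TPM in 22RV1 and 26.9 and 27.7 TPM in PC3.

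HNRNPK and HNRNPM are abundant members with other RNA preferences, and both were lower in 22RV1. HNRNPK was 379 and 328 TPM in 22RV1 and 256 and 275 TPM in PC3. HNRNPM was 510 and 436 TPM in 22RV1 and 345 and 310 TPM in PC3. HNRNPK was thus higher with shDDX52 in PC3 and HNRNPM lower, at 0.10 and −0.15.

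The polypyrimidine tract binding proteins and their relatives HNRNPL and HNRNPLL gave medians of −0.07 in each line. PTBP1 (chromosome 19 from 797075 to 812327, plus strand), the form found in most tissues and a repressor of neuronal exons, was 327 and 303 TPM in 22RV1 and 171 and 204 TPM in PC3. Its log2 ratio was −0.11 in 22RV1 and 0.25 in PC3. PTBP2 (chromosome 1 from 96721665 to 96823738, plus strand), the form of neurons and testis, was 1.75 and 4.46 TPM in 22RV1, a log2 ratio of 0.99. In PC3 it was 1.11 and 0.99 TPM, a log2 ratio of −0.08. PTBP2 was the member that was furthest up in 22RV1, at a level below 5 TPM in all 4 libraries.

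PTBP3 was 6.24 and 6.23 TPM in 22RV1 and 5.23 and 5.87 TPM in PC3. HNRNPL, which binds CA repeats, was 449 and 428 TPM in 22RV1 and 232 and 221 TPM in PC3, with log2 ratios of −0.07 in each. HNRNPLL, known from CD45 splicing in lymphocytes, was 7.77 and 5.46 TPM in 22RV1 and 12.6 and 10.8 TPM in PC3. Its log2 ratio of −0.44 was among the 5 lowest in 22RV1.

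HNRNPR and SYNCRIP, close relatives that bind mRNA in nucleus and cytoplasm, were lower in both lines. HNRNPR was 111 and 93.5 TPM in 22RV1 and 95.2 and 76.1 TPM in PC3, with log2 ratios of −0.24 and −0.32. SYNCRIP was 27.7 and 25.7 TPM in 22RV1 and 34.4 and 29.7 TPM in PC3, with log2 ratios of −0.10 and −0.20.

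In the U class, which binds nuclear RNA and chromatin, the members did not go the same way. HNRNPU was 370 and 340 TPM in 22RV1 and 282 and 242 TPM in PC3, with log2 ratios of −0.12 and −0.22. HNRNPUL2-BSCL2, whose transcript shares 98.8% of its 50-base words with HNRNPUL2 and another gene, was 84.1 and 71.8 TPM in 22RV1 and 84.6 and 90.01 TPM in PC3, with log2 ratios of −0.23 and 0.09. HNRNPUL1 (chromosome 19 from 41262496 to 41307598, plus strand), which is also recruited to DNA breaks, was 184 and 223 TPM in 22RV1 and 98.0 and 122 TPM in PC3. HNRNPUL1 was the HNRNP gene above its control in both lines, with log2 ratios of 0.28 and 0.31.

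**Figure D2:**
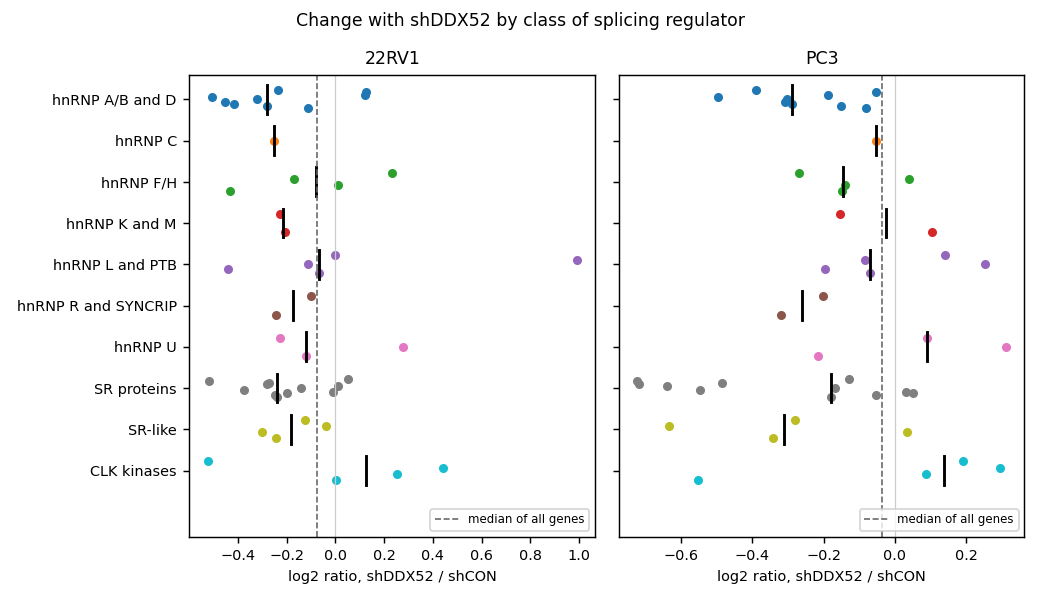
Log2 ratio of each member used, by class, in 22RV1 and PC3; each point is 1 gene, black bars are class medians and the dashed line is the median of all genes (−0.08 and −0.04). The medians of the A/B and D class and of the SR proteins lie to the left of the dashed line in both panels, and that of the CLK kinases to the right.

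Among the SR proteins, 9 of 11 were lower in 22RV1 with a median of −0.24, and 9 of 11 in PC3 with a median of −0.18. The shares of all genes that were lower were 58.8% and 53.5%. The largest changes among all members in PC3 were in this class. SRSF8 (chromosome 11 from 95067197 to 95071224, plus strand), a copy related to SRSF2, was 17.0 and 11.6 TPM in 22RV1 and 20.2 and 11.8 TPM in PC3. Its log2 ratios were −0.52 and −0.72, so SRSF8 was the SR protein furthest down in each line.

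SRSF6 (chromosome 20 from 43457928 to 43464247, plus strand), known for its action on tau splicing, was 38.8 and 31.8 TPM in 22RV1. In PC3 it was 49.5 and 29.7 TPM, and the log2 ratios were −0.28 and −0.72. Its PC3 shCON value was the highest of its 4 values and its PC3 shDDX52 value the lowest.

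SRSF5 (chromosome 14 from 69726900 to 69772005, plus strand), whose transcript responds to growth signals, was 145 and 146 TPM in 22RV1 with a log2 ratio of 0.01. The PC3 level was 368 and 236 TPM, a log2 ratio of −0.64. Both PC3 libraries lay above both 22RV1 libraries.

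SRSF3 (chromosome 6 from 36594353 to 36605600, plus strand), the smallest SR protein, which also links splicing to mRNA export, was 168 and 129 TPM in 22RV1 and 202 and 138 TPM in PC3. The log2 ratios were −0.38 and −0.55. SRSF7, which is related to SRSF3, was 106 and 87.8 TPM in 22RV1 and 114 and 81.3 TPM in PC3, with log2 ratios of −0.27 and −0.49. Both genes were lower with shDDX52 in both lines, by more in PC3.

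SRSF1, the best studied SR protein and a known oncogene, was 87.6 and 74.0 TPM in 22RV1 and 89.9 and 79.3 TPM in PC3, with log2 ratios of −0.24 and −0.18. SRSF2, which binds both C-rich and G-rich exon motifs, was 215 and 213 TPM in 22RV1 and 237 and 242 TPM in PC3, with log2 ratios of −0.01 and 0.03. SRSF9 was 313 and 325 TPM in 22RV1 and 301 and 275 TPM in PC3, with log2 ratios of 0.05 and −0.13. SRSF2 was thus among the SR proteins that differed least between shCON and shDDX52 in both lines, and SRSF9 in 22RV1.

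SRSF4, SRSF10 and SRSF11 lay between −0.25 and −0.14 in 22RV1 and between −0.17 and 0.05 in PC3. SRSF4 was 70.8 and 64.1 TPM in 22RV1 and 44.3 and 39.3 TPM in PC3. SRSF10, a splicing repressor when dephosphorylated, was 28.4 and 23.8 TPM in 22RV1 and 24.7 and 23.8 TPM in PC3. SRSF11 was 26.1 and 22.6 TPM in 22RV1 and 19.5 and 20.2 TPM in PC3.

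The SR-like genes TRA2A, TRA2B, RBM39 and SON gave medians of −0.18 in 22RV1 and −0.31 in PC3. TRA2A (chromosome 7 from 23504780 to 23532041, minus strand), an exon activator, was 26.8 and 26.1 TPM in 22RV1 and 33.3 and 21.1 TPM in PC3. Its log2 ratio was −0.04 in 22RV1 and −0.63 in PC3. TRA2B, its relative, was 76.4 and 70.1 TPM in 22RV1 and 86.3 and 70.9 TPM in PC3, with log2 ratios of −0.12 and −0.28.

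RBM39, a partner of the U2 auxiliary factor and the target of aryl sulfonamide degraders, was 56.2 and 47.4 TPM in 22RV1 and 79.1 and 62.2 TPM in PC3, with log2 ratios of −0.24 and −0.34. SON, a scaffold of nuclear speckles, was 67.4 and 54.5 TPM in 22RV1 and 59.8 and 61.3 TPM in PC3, with log2 ratios of −0.30 and 0.03. TRA2A, TRA2B and RBM39 were therefore lower with shDDX52 in both lines, and SON in 22RV1.

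The CLK kinases that phosphorylate SR proteins were the class with a median above 0 in both lines, at 0.13 in 22RV1 and 0.14 in PC3, with 1 of 4 genes lower in each line. Their sum was 112 and 140 TPM in 22RV1, a change of 25.7%, and 79.7 and 88.8 TPM in PC3, a change of 11.4%. CLK3 (chromosome 15 from 74598500 to 74645414, plus strand) was 51.2 and 69.8 TPM in 22RV1 and 48.2 and 59.4 TPM in PC3, with log2 ratios of 0.44 and 0.30. CLK2 (chromosome 1 from 155262868 to 155278491, minus strand) was 56.1 and 66.9 TPM in 22RV1 and 18.4 and 19.5 TPM in PC3, with log2 ratios of 0.25 and 0.09. CLK2 and CLK3 together made up most of the CLK transcript level in each library.

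CLK1 and CLK4 were low in both lines and differed in direction. CLK1 was 3.01 and 3.02 TPM in 22RV1 and 10.9 and 7.09 TPM in PC3, with log2 ratios of 0.00 and −0.55. CLK4 was 1.5 and 0.74 TPM in 22RV1 and 2.26 and 2.72 TPM in PC3, with log2 ratios of −0.52 and 0.19.

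Across the 45 members used in both lines, 25 were lower with shDDX52 in both lines (55.6%), beside 32.5% of the 12175 genes used in both. For genes of at least 10 TPM the shares were 57.9% of 38 members and 35.7% of 5978 genes. Neither share allows for transcript length and GC content. Set against genes alike in both, 24 of 45 members were lower in 22RV1 and 31 of 45 in PC3. HNRNPUL1, CLK2 and CLK3 were the 3 members higher in both, while 9 were lower in 22RV1 and higher in PC3 and 8 the other way round. No member was 1.5-fold lower or higher in both lines. The log2 ratios of the 45 members in both lines gave a Spearman correlation of 0.33 and a Pearson correlation of 0.32, as a description over genes of the same 4 libraries. Over all 12175 genes the Spearman value was 0.01 and the Pearson value −0.20. For the 22 HNRNP genes the Spearman value was 0.53 and for the 11 SR proteins 0.55. Whether a member's change differed between the cell lines was not tested, because each condition had 1 library.

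**Figure D3:**
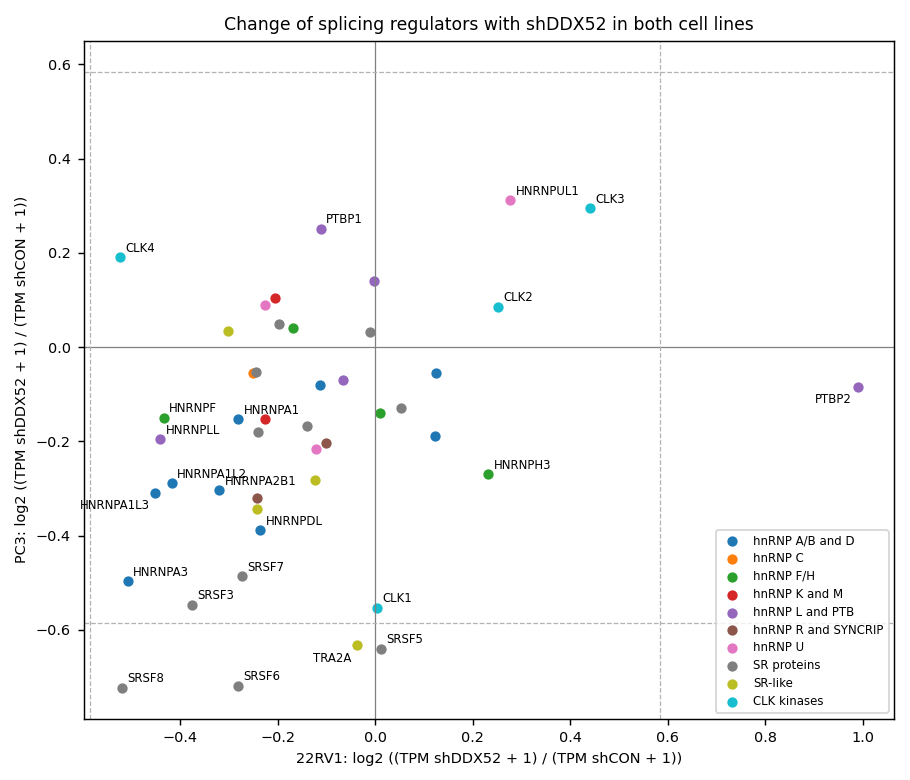
Log2 ratio of each of the 45 members in 22RV1 (x axis) and PC3 (y axis), coloured by class; solid lines mark no change and dashed lines 1.5-fold. The lower left field holds 25 members, and SRSF8, SRSF6, SRSF5 and TRA2A lie under the lower dashed line.

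Of the members, 13 are in the hallmark MYC targets V1 set, as far as it could be written down without the database. Of these, 12 were lower in 22RV1 and 12 in PC3, with medians of −0.24 and −0.22, beside 58.8% and 53.5% of all genes lower. The exceptions were HNRNPD in 22RV1 and SRSF2 in PC3. Among the 32 members outside the set that were used, 22 were lower in 22RV1 and 21 in PC3, with medians of −0.15 and −0.13. Of those outside the set with at least 10 TPM, 17 of 25 were lower in 22RV1 and 18 of 27 in PC3. Against genes of like transcript length and GC content, the 22RV1 medians were −0.05 inside the set and −0.01 outside it. The PC3 medians were then −0.23 and −0.11. The study ranked genes by sets of this kind on these libraries, so these counts are no independent evidence of a direction. All 4 members that were 1.5-fold lower in PC3 were outside the set.

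The GC content of the transcript moved with the change in 22RV1. Over 7116 genes of at least 10 TPM, the Spearman correlation between GC content and the log2 ratio was 0.49 in 22RV1, as a description across genes of a single pair of libraries, and 0.42 among the 38 members at that level in both lines. In PC3 the value was 0.02 over 7477 genes and 0.41 among the same members. Over all 45 members it was 0.31 in 22RV1 and 0.22 in PC3. Members were poor in GC, with a median of 42.6% beside 50.6% of all genes used in 22RV1. Among genes with a GC content under 45% and at least 10 TPM, 21 of 23 members were lower in 22RV1 with a median of −0.24, beside 1279 of 1546 genes with a median of −0.22. In PC3 20 of the 23 members were lower with a median of −0.27, beside 1240 of 1915 genes with a median of −0.14. When each log2 ratio was centred on genes of like transcript length and GC content, 24 of 45 members were lower in 22RV1 with a median of −0.03, and 31 of 45 in PC3 with a median of −0.12. In 22RV1 most of the members' common shift was therefore also present in other genes of like length and GC content.

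**Figure D4:**
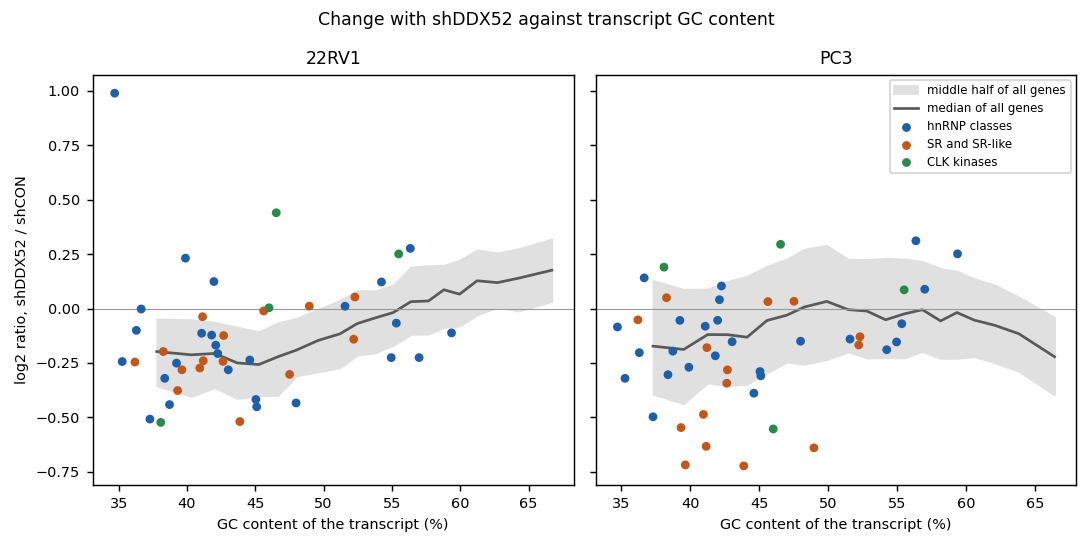
Log2 ratio against the GC content of the transcript in 22RV1 and PC3; points are members, the line is the median of all genes of at least 10 TPM in bins of GC content and the grey band holds their middle 50%. In 22RV1 the line rises with GC content from below 0 to above 0, and most members lie at its left, lower end; in PC3 it shows no steady rise.

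The composition of the libraries also differed. Ribosomal RNA genes held 1.21% and 0.0872% of the TPM in 22RV1 shCON and shDDX52, and 0.0923% and 3.13% in PC3 shCON and shDDX52. For mitochondrial genes the shares were 9.81% and 13.0% in 22RV1, against 8.10% and 10.3% in PC3. Rescaled to nuclear protein-coding genes, SRSF8 and SRSF6 remained past 1.5-fold in PC3, at −0.61 and −0.59, while SRSF5 and TRA2A were at −0.51. CLK3 and HNRNPUL1 were at 0.42 and 0.44 in PC3 on that scale. Centred on transcript length and GC content, TRA2A was at −0.42 in PC3, and CLK3 was at 0.61 in 22RV1 but at 0.11 in PC3. The part of library composition in the members' changes was otherwise not tested.

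The control libraries were compared to see how far the members differ between the cell lines before knockdown. Each control library also enters a knockdown comparison, so these values stand only beside those. In PC3 relative to 22RV1 shCON, 10 of 45 members were at least 1.5-fold lower (32.2% of all genes) and 5 at least 1.5-fold higher (29.3% of all genes), which is 22.2% and 11.1% of the members. Their log2 values ranged from −1.56 to 2.20 with a median of −0.06, beside −0.07 for all genes. Both shares lay under those of all genes. HNRNP genes had a median of −0.38, with 14 of 22 lower in PC3 (52.3% of all genes), and SR proteins a median of 0.10, which was −0.07 when genes were centred by length and GC content. The summed HNRNP level was 6443 TPM in 22RV1 and 4539 TPM in PC3, while that of the SR proteins was 1216 and 1470 TPM.

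The genes furthest up in PC3 were HNRNPA3 (2.20), CLK1 (1.57), SRSF5 (1.34), HNRNPH3 (0.80) and HNRNPLL (0.63). Those furthest down were CLK2 (−1.56), HNRNPA0 (−1.26), HNRNPL (−0.95), PTBP1 (−0.93) and HNRNPA1 (−0.91). The CLK genes split here, since CLK2 was 56.1 TPM in 22RV1 and 18.4 TPM in PC3, CLK1 was 3.01 and 10.9 TPM, and CLK3 was 51.2 and 48.2 TPM. For each of these 10 genes the difference between the control libraries was larger than the same gene's difference with shDDX52 in either line. The 10 genes were picked for their large difference between the control libraries, so the choice itself favoured this outcome.

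**Figure D5:**
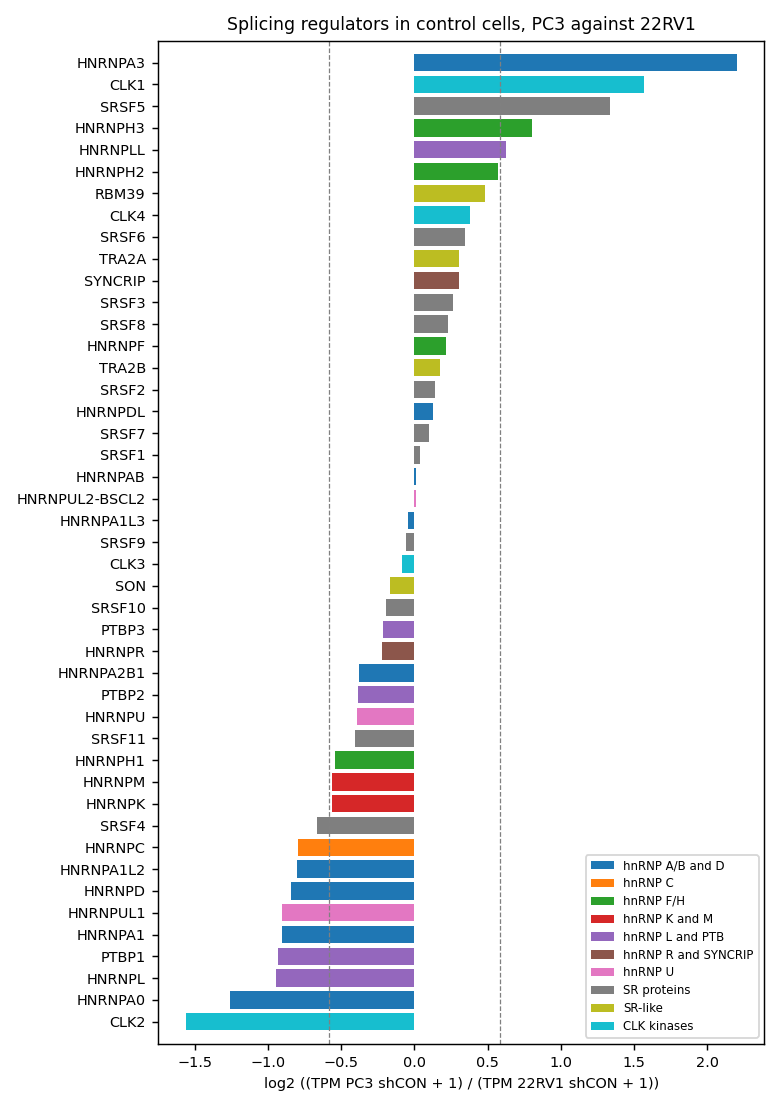
Log2 ratio of each member between PC3 shCON and 22RV1 shCON as bars from 0, coloured by class, with dashed lines at 1.5-fold. HNRNPA3 extends to 2.20 and CLK2 to −1.56, and 30 of the 45 bars stay within the dashed lines.

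Genes that work with the members were counted for comparison. Of 7 kinases and nuclear importers, which include SRPK1, TNPO1 and TNPO3, 5 were lower in 22RV1 with a median of −0.35. In PC3 4 of 6 were lower with a median of −0.07, and none reached 1.5-fold in either line. The shares of all genes that were lower were 58.8% and 53.5%. SRPK1 was 17.6 and 13.0 TPM in 22RV1 and 25.03 and 27.45 TPM in PC3. Of 13 SR-related coactivators, 7 were lower in 22RV1, which is 53.8% beside 58.8% of all genes, and 10 in PC3, which is 76.9% beside 53.5%. In PC3 3 of the 13 were 1.5-fold lower, beside 9.84% of all genes. These were SRRM2, a scaffold of nuclear speckles, at 220 and 118 TPM, BCLAF1 at 20.3 and 11.6 TPM and LUC7L, which associates with the U1 snRNP, at 29.8 and 17.5 TPM, named after their values were seen. In 22RV1 SRRM2 was 317 and 334 TPM, with a log2 ratio of 0.08 beside −0.89 in PC3. Of 6 hnRNPs under other symbols, such as PCBP1, PCBP2 and RBMX, 4 were lower in 22RV1 and 5 in PC3, none of them 1.5-fold.

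The median of other splicing regulators was −0.13 in 22RV1 and 0.00 in PC3, with 19 of 28 and 14 of 29 lower. In 22RV1 3 of them, or 10.7%, were 1.5-fold lower beside 8.47% of all genes, and in PC3 2, or 6.90%, were 1.5-fold higher beside 8.95%. The 3 in 22RV1 include the lower of the MATR3 identifiers, at 11.8 and 7.51 TPM (−0.59). The other MATR3 identifier was 31.7 and 32.7 TPM in 22RV1 (0.05), so the count rests in part on a gene listed under more than 1 identifier. QKI, a regulator of splicing and circular RNA formation, was the gene of these lists past 1.5-fold in opposite directions, at 8.24 and 4.69 TPM in 22RV1 and 12.1 and 31.9 TPM in PC3, with log2 ratios of −0.70 and 1.33. RBFOX2 was 21.2 and 12.7 TPM in 22RV1 and 18.7 and 23.0 TPM in PC3, again chosen after its values were seen. Of 10 nonsense-mediated decay factors, which act on poison exon transcripts, 7 were lower in each line, with medians of −0.16 and −0.14.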

How the data were processed

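RNA-seq was done on 4 libraries, 1 for each combination of cell line and hairpin, grouped by their labels. The authors mapped the reads on the Majorbio Cloud Platform and deposited TPM per Ensembl gene; the submitters' processing notes name CASAVA, HISAT2 and hg19, and the quantification program and annotation are not given in the sources used here. TPM keeps no depth, so no interval or count model was used. Of 60671 identifiers, 42020 were paired with a symbol and 58453 were found in GENCODE 29 on GRCh38, from which positions, transcript lengths and GC content (longest protein-coding transcript, else longest) were taken; these positions are not those of the deposited build. Promoter sequences came from RefSeq on GRCh38.p14.

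The log2 ratio used a pseudocount of 1 TPM for genes reaching 1 TPM in at least 1 of the libraries compared, without any test, and 1.5-fold counted as a call. A list is described by counts and its median beside the same over all genes. The members and lists were chosen with earlier results of these data known, and the V1 set was written from memory; HNRNPA1L3 and HNRNPUL2-BSCL2 were put in a class after the files were seen. MATR3, among the other splicing regulators, has 2 identifiers and was counted under each.

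Genes were named by a rule: DDX52, members past 1.5-fold, the 5 members furthest down and up in each line and between the control lines, the 3 highest members, all CLK, PTBP, TRA2 genes, SYNCRIP, RBM39 and SON, and related genes past 1.5-fold in both lines or in opposite directions. The other members are given to account for each of them, and some items covered by the rule or the lists are not reported here. Alternatives covered a pseudocount of 0.1, a filter of 5 TPM or none, TPM over nuclear protein-coding genes, TPM without mitochondrial genes and the 20 highest genes, and centring on all genes or on genes in 10 bins each of transcript length and GC content. The scripts were tested on simulated data. Python 3.11.15 was used with pandas 2.3.3, numpy 2.4.6 and matplotlib 3.10.9.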

Additional observations from a re-analysis of the deposited data

Results flagged for a closer look

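SRSF3P4, a processed pseudogene of SRSF3, is not a member and was used only in the sum with SRSF3 and among all genes. It was listed at 61.95 TPM with shCON and 42.85 TPM with shDDX52 in 22RV1, and at 0 in PC3. With 1 library per condition, a gene was also picked out when its log2 ratio was at least 0.32 below 0 in 1 line and at least 0.32 above 0 in the other. No member met this. Among the other genes examined, QKI did, with a log2 ratio of −0.70 in 22RV1 and 1.33 in PC3, and so did VIM, one of the markers used to check the cell lines, with −0.47 and 2.31. The difference between the lines was not tested for either.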

How the results depend on the processing

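With 54 results under 7 alternatives, 321 of 374 values stayed within 0.1 (log2) or 1.5 times the count, 51 moved further and 2 reversed. No paired analysis was possible within a cell line because each condition has a single library, and for the same reason no library could be left out; a fit over both lines with the line as a block, which would treat the lines as replicates, was not run. With ratios centred by transcript length and GC content, the 22RV1 medians were −0.033 for all members, −0.032 for HNRNP genes, −0.059 for SR proteins, −0.051 for members in the V1 set, −0.0093 for those outside it and 0.27 for CLK kinases, 2 members were 1.5-fold higher in 22RV1, and the SR median between control lines reversed to −0.074. On the scale of nuclear protein-coding genes, the PC3 medians were −0.024 for all members, −0.023 for HNRNP genes, −0.051 for SR proteins, −0.088 for members in the V1 set, −0.016 for those outside it and 0.25 for CLK kinases, and 2 members were 1.5-fold lower in PC3. The median of the nuclear protein-coding genes used in PC3 was 0.08 on that scale, beside −0.04 for all genes used before rescaling. Centred on all genes, the members' median between control lines was 0.010, a reversal of a value near 0 by the shift alone. A filter of 5 TPM left 2 CLK genes in 22RV1 with a median of 0.35 and, without PTBP2, 0 members 1.5-fold higher. With a pseudocount of 0.1, 1 member (CLK4) was 1.5-fold lower in 22RV1. Apart from the filter and the centring on all genes, the cause was not tested. The number of lower members ranged from 24 to 35 in 22RV1 and between 27 and 33 in PC3, and that of members 1.5-fold lower in PC3 from 2 to 5.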
